A study of Homo sapiens with 18 samples.

Results

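The genes described here carry or sense short-chain fatty acids: the proton-coupled carriers SLC16A1, SLC16A3 and SLC16A7, the sodium-coupled carriers SLC5A8 and SLC5A12, the chaperones BSG and EMB, and the receptors FFAR2, FFAR3 and HCAR2. The rule takes them by name and uses no measured value, although the set was drawn up with earlier results of these data known. All 10 symbols matched a row among the 61541 Ensembl genes listed in the count tables. The RNA came from A549, an established human lung adenocarcinoma line labelled WT, grown in high-glucose DMEM with fetal bovine serum. Cells were left untreated or received sodium propionate (SP), the salt of a short-chain fatty acid, at 5 mM. One experiment compared untreated cells at 24 h (Control_24H) with SP for 3 h (SP_3H) and for 24 h (SP_24H), and the other compared untreated cells at 3 days (Control_3D) with SP for 3 days (SP_3D) and for 12 days (SP_12D), with 3 libraries in each of the 6 groups. SP_3H therefore had no untreated library of 3 h and SP_12D none of 12 days, and in these comparisons SP cannot be told apart from time in culture. No RNA library here received another sodium salt. The labels do not say whether the 3 libraries of a group came from separate cultures. The study calls those of the 3 h and 24 h experiment biological replicates, and does not say so for the 3 and 12 day experiment. The p-values measure the spread between these libraries, which in the 3 and 12 day experiment may be technical.

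Short-chain fatty acids such as acetate, propionate and butyrate are weak acids that cross membranes on carriers. The SLC16 carriers MCT1 (SLC16A1), MCT2 (SLC16A7) and MCT4 (SLC16A3) move a monocarboxylate together with a proton, in the direction the gradients set. MCT1 and MCT2 have a higher affinity and are often linked to uptake, while MCT4 has a low affinity and is best known for lactate export from glycolytic cells. These carriers need an immunoglobulin-like partner to reach the plasma membrane, basigin (BSG, CD147) for MCT1 and MCT4 and embigin (EMB) for MCT2. SLC5A8 and SLC5A12 couple monocarboxylates to sodium, chiefly in gut and kidney epithelium. FFAR2, FFAR3 and HCAR2 are G protein-coupled receptors, FFAR2 and FFAR3 for short-chain fatty acids and HCAR2 for butyrate, niacin and ketone bodies, and all act through inhibitory G proteins.

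Promoter windows are shown for 3 members whose RNA differed between SP and control libraries, since MCT4 is a known target of hypoxia-inducible factors, whose sites have an ACGTG core, and the E-box CACGTG bound by MYC-type factors holds the same letters. Each window runs from 250 bases before to 50 bases after the start in RefSeq (GRCh38.p14), and capitals mark ACGTG on either strand. The windows are chr17:82228792-82229091 for SLC16A3, chr19:572346-572645 for BSG and chr19:35448007-35448306 for FFAR2, all on the plus strand.
SLC16A3: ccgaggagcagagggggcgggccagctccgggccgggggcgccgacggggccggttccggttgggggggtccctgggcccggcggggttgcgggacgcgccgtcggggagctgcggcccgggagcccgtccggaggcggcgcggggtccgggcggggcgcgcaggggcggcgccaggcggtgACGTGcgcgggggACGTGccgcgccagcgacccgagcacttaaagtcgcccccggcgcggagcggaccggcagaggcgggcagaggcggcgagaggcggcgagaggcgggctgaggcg
BSG: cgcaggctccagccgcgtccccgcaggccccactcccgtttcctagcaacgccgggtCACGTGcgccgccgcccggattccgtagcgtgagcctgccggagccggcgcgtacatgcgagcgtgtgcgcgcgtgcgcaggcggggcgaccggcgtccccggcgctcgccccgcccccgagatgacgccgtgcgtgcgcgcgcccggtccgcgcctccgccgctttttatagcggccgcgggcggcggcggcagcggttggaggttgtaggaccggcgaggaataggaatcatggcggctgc
FFAR2: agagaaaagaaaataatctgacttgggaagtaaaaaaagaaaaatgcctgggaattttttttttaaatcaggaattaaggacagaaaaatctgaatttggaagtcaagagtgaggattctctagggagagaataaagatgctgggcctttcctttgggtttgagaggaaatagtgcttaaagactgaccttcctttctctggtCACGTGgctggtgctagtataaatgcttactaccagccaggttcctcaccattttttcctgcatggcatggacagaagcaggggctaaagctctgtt
SLC16A3 held 2 separate cores, whose first bases lie at -68 and -55 from the start. BSG and FFAR2 held 1 CACGTG each, which reads ACGTG on both strands, with its first base at -193 in BSG and -47 in FFAR2. Of 35116 RefSeq promoter windows of this length, 21.4% held ACGTG on either strand, so the letters are common. A share of 8.8% held 2 or more matches, where 1 CACGTG counts as 2. Of the 10 members, 6 had an entry, with 12 windows in all, and the windows of SLC16A7, SLC5A8 and SLC5A12 and the other windows of SLC16A3 and BSG held none. The 3 windows shown are thus those that hold the letters. SLC16A1 and EMB, whose RNA also differed, had no entry. A match is a description of the sequence only.

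Of the 10 members, 5 could be tested. Depth was between 14187401 and 43765330 reads per library, and levels are given as counts per 1000000 reads (CPM) scaled by trimmed mean of M-values (TMM) factors. SLC16A1, SLC16A3, SLC16A7, BSG and EMB passed the filter on low counts in both experiments, among 17377 tested genes in the 3 h and 24 h experiment and 17775 in the 3 and 12 day experiment. SLC5A8 and FFAR3 had 0 reads in all 18 libraries, which over 396517102 reads allows a level of up to 0.00757 CPM (3 reads, counting error only). SLC5A12 had 2 reads in the 18 libraries, HCAR2 had 38 and FFAR2 had 44. By the scale of these libraries SLC5A8 and FFAR3 were not detected, SLC5A12 was near 0, and FFAR2 and HCAR2 were low. For bulk RNA, fewer cells with a transcript and less of it per cell cannot be told apart.

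A gene is called changed here at an adjusted p under 0.05 in edgeR's quasi-likelihood test, and a stricter call takes the thresholds of the study, an adjusted p under 0.0001 and a fold of at least 2. At 3 h, 1 of 5 tested members rose (SLC16A3), beside 7.39% of all tested genes, and 0 fell, beside 4.11%. At 24 h, 2 rose (SLC16A3 and BSG), beside 16.8%, and 0 fell, beside 12.0%. At 3 days, 3 rose (SLC16A3, BSG and EMB), beside 25.2%, and 0 fell, beside 23.3%. At 12 days, 4 rose (the same 3 and SLC16A1), beside 26.4%, and 0 fell, beside 23.4%. The stricter call took 0 members at 3 h, where it took 0% of tested genes although 4367 had an unadjusted p under 0.05 in edgeR and DESeq2 placed 2665 past an adjusted p of 0.05. It took SLC16A3 at 24 h, beside 0.685% of tested genes, SLC16A3 again at 3 days, beside 8.44%, and SLC16A3 and EMB at 12 days, beside 9.11%. With 5 tested members these shares describe the members one by one and say little of them as a set.

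**Figure D1:**
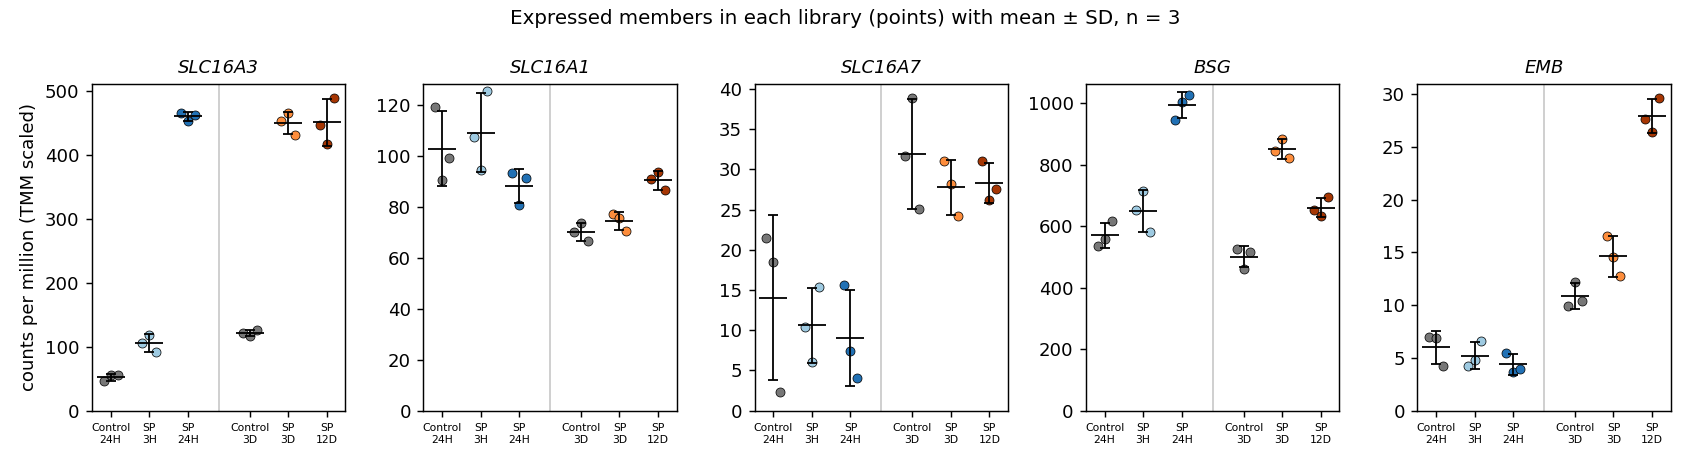
TMM-scaled CPM (y axis, from 0, a separate scale in each panel) of the 5 tested members in the 18 libraries, by group (x axis); points are libraries, the line and bars the mean ± SD (n = 3), and the grey line parts the experiments. SLC16A3 lay between 417.1 and 489.5 CPM in all 9 libraries with SP for 24 h or longer and at or under 126.8 CPM in all control libraries, BSG peaked in SP_24H and SP_3D, and EMB was highest in SP_12D.

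SLC16A3, which encodes the exporter MCT4, showed the largest rise of the tested members at each time. Its gene lies on the plus strand at chr17:82217934-82261129. In the 3 h and 24 h experiment the control libraries had 867, 1046 and 1600 reads, or 45.9, 55.3 and 56.1 CPM. The SP_3H libraries had 106.5, 119.1 and 91.2 CPM, and the SP_24H libraries 465.7, 452.9 and 462.5 CPM. All 3 groups were apart from each other with no overlap.

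The level at 3 h was 105.6 ± 14.0 CPM against 52.4 ± 5.66 CPM in Control_24H (SD, n = 3), a 2.01-fold rise (95% interval 1.67 to 2.44; log2 1.01, SE 0.12, edgeR adjusted p = 0.00146). By 24 h it was 460.3 ± 6.65 CPM, 8.78-fold over the control (7.16 to 10.8; log2 3.13, SE 0.13, edgeR adjusted p = 3.07e-06). SP_24H exceeded SP_3H by 2.12 on the log2 scale (SE 0.13, edgeR adjusted p = 6.39e-05). In that comparison 2 of the 5 tested members rose (SLC16A3 and BSG), beside 11.7% of tested genes, and 0 fell, beside 8.40%.

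The longer experiment began from a higher control level of SLC16A3. Its control libraries had 121.0, 117.5 and 126.8 CPM, those of SP_3D 453.2, 465.3 and 430.8 CPM, and those of SP_12D 446.5, 417.1 and 489.5 CPM. Every SP library was over 3 times any control library, and the 2 SP groups overlapped. The mean rose from 121.8 ± 4.69 to 449.8 ± 17.5 CPM at 3 days (3.69-fold, 3.26 to 4.18, log2 1.88, SE 0.08, edgeR adjusted p = 1.35e-10). At 12 days it was 451 ± 36.4 CPM (3.70-fold, 3.27 to 4.19, log2 1.89, SE 0.08, edgeR adjusted p = 1.27e-10).

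Between SP_12D and SP_3D the difference of SLC16A3 was 0.00 on the log2 scale, with a 95% interval from -0.17 to 0.18 (edgeR adjusted p = 0.983). The SP level was thus near 450 CPM in both experiments while the controls differed, but the tables were scaled separately and their levels were not tested against each other. Comparisons within a table share their control libraries, so the folds at 3 and 12 days, and those at 3 and 24 h, are not independent of each other.

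**Figure D2:**
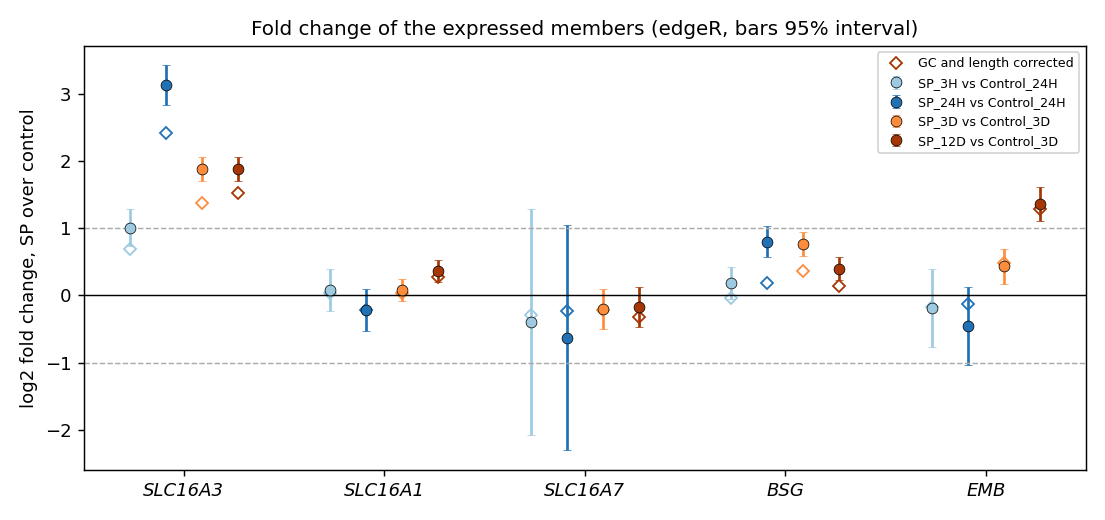
Log2 fold change of SP over control (y axis) for each tested member (x axis) in the 4 comparisons with control; filled circles with bars are the edgeR estimate and its 95% interval, open diamonds the estimate after a correction for GC content and length, and dashed lines a fold of 2. SLC16A3 stayed above 0 with and without the correction, and BSG moved close to 0 with it at 24 h (0.18) and 12 days (0.13).

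The libraries differed in how strongly GC-rich genes were counted, and SLC16A3 and BSG are GC-rich members (62.7% and 62.4% of the bases of the longest transcript). The tilt, taken as the median centred log2 level of the fifth of tested genes highest in GC less that of the fifth lowest in GC, was -0.72, -0.40 and 0.33 in Control_24H, -0.03, 0.15 and -0.48 in SP_3H, and 0.10, 0.43 and 0.54 in SP_24H. It was -0.14, -0.32 and 0.07 in Control_3D, 0.09, 0.17 and 0.24 in SP_3D, and -0.10, -0.08 and 0.08 in SP_12D. The SP_3D libraries lay above the control libraries, and 2 of the 3 SP_24H libraries did so, while SP_3H and SP_12D overlapped their controls. With a correction for GC content and length, SLC16A3 rose by 0.69 at 3 h, 2.42 at 24 h, 1.38 at 3 days and 1.53 at 12 days (log2), still past the threshold at each time. Such a correction removes any change that truly follows GC content as well as a bias of the libraries, and which of them it removed was not tested.

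SLC16A3 has 543 exon bases in common with neighbours, CSNK1D and MIR6787, and the strand setting of the counting is not stated. CSNK1D did not pass the threshold in the 4 comparisons with control, with log2 values from -0.11 to 0.09.

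SLC16A1, which encodes MCT1, a main carrier for propionate and butyrate, passed the threshold at 12 days and at no earlier time. The gene lies on the minus strand at chr1:112911847-112957593. Its libraries had 119.1, 90.6 and 99.1 CPM in Control_24H, 107.6, 94.6 and 125.5 CPM in SP_3H, and 93.2, 80.7 and 91.3 CPM in SP_24H, and each SP group overlapped the control. The log2 difference was 0.09 at 3 h (95% interval -0.23 to 0.40) and -0.22 at 24 h (-0.53 to 0.09), with edgeR adjusted p of 0.769 and 0.26.

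In the longer experiment the SLC16A1 libraries had 70.2, 73.8 and 66.5 CPM in Control_3D, 77.2, 75.6 and 70.5 CPM in SP_3D, and 91.2, 93.9 and 86.5 CPM in SP_12D. SP_3D overlapped the control (log2 0.08, -0.08 to 0.25, edgeR adjusted p = 0.394), whereas all SP_12D libraries lay above it. SLC16A1 rose at 12 days by 0.37 (SE 0.08, 1.29-fold, edgeR adjusted p = 0.00105). The step from SP_3D to SP_12D was 0.28 (SE 0.08, edgeR adjusted p = 0.0367) and missed the threshold in 7 of 16 alternatives, 6 of which left out a library. An antisense gene, SLC16A1-AS1, shares 231 exon bases with SLC16A1 and did not pass the threshold in any comparison.

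SLC16A7, which encodes the high-affinity carrier MCT2, had the lowest level per kb of these carriers in all groups, from 0.66 to 2.33 CPM per kb. It lies on the plus strand at chr12:59596029-59789855. In the 3 h and 24 h experiment its libraries were far apart within groups, 21.4, 18.5 and 2.28 CPM in Control_24H, 10.4, 6.03 and 15.3 CPM in SP_3H, and 15.7, 7.45 and 4.09 CPM in SP_24H. The 3 groups overlapped, and the intervals of the log2 difference were wide, from -2.08 to 1.28 at 3 h and from -2.31 to 1.05 at 24 h. This member is AT-rich (33.8% GC), and within each group of this experiment it was lowest in the library with the highest GC tilt (0.33 in Control_24H, 0.15 in SP_3H and 0.54 in SP_24H). The part of the tilt in this spread was not tested beyond the correction, under which the values still missed the threshold.

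At 3 and 12 days SLC16A7 was tighter, with 31.7, 38.9 and 25.1 CPM in Control_3D, 31.0, 28.1 and 24.2 CPM in SP_3D and 31.1, 26.2 and 27.5 CPM in SP_12D. The log2 differences of -0.20 and -0.17 did not pass the threshold (edgeR adjusted p = 0.262 and 0.32). They did pass it at 3 days without Control_3D replicate 3 (-0.34, edgeR adjusted p = 0.0427) and at 12 days with the GC content and length correction (-0.32, edgeR adjusted p = 0.00869).

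Per kilobase of exon, SLC16A1 was above SLC16A3 in Control_24H and SP_3H and below it in SP_24H, while in the longer experiment SLC16A3 was the higher of the pair in the control libraries too. In Control_24H the level of SLC16A1 was 16.2 ± 2.30 CPM per kb and that of SLC16A3 5.68 ± 0.61 (SD, n = 3), and in SP_24H they were 13.9 ± 1.06 and 49.8 ± 0.72. The per-kb ratio of SLC16A3 to SLC16A1 was 0.36 ± 0.08 in Control_24H, 0.68 ± 0.18 in SP_3H and 3.59 ± 0.23 in SP_24H. In the longer experiment it was 1.20 ± 0.11 in Control_3D, 4.16 ± 0.11 in SP_3D and 3.44 ± 0.42 in SP_12D. Each SP group lay wholly above its control, and the two-sided exact permutation test gave p = 0.1 in all 4 comparisons, the smallest it can give with 3 libraries against 3. This ratio restates the SLC16A3 rise in part. It was taken without the GC content and length correction, and SLC16A3 is richer in GC than SLC16A1 (62.7% against 43.5%). The part of the GC tilt in the ratio was not tested. Exon length is the union of all annotated transcripts, so the ratio shifts with the isoforms used, while its change between groups does not depend on that length.

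**Figure D3:**
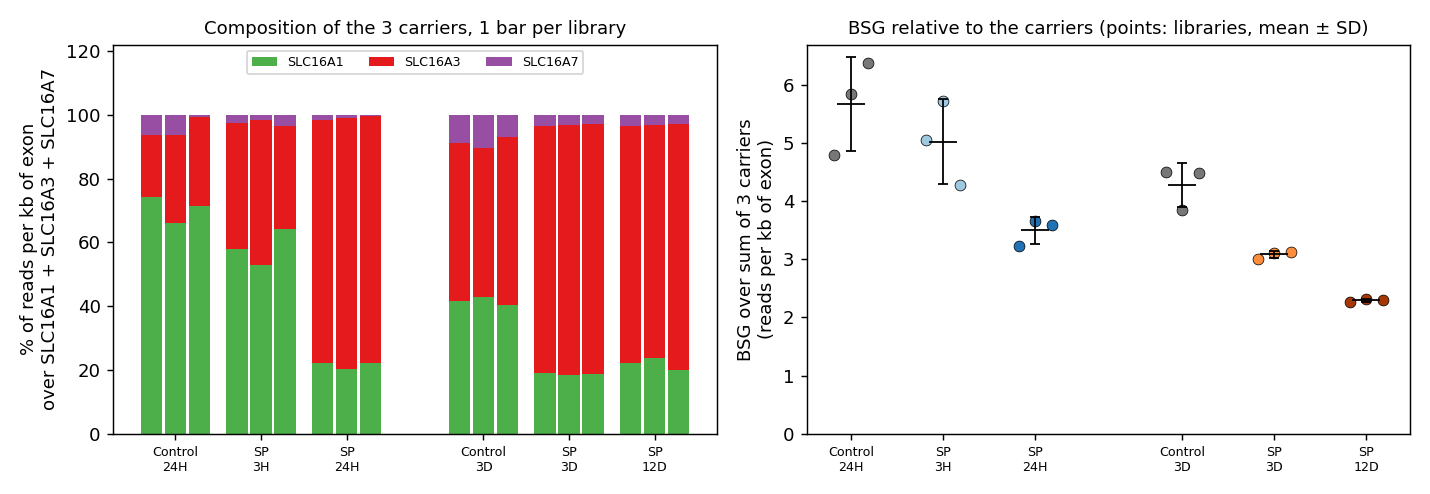
Left, the percent of reads per kb of exon over SLC16A1, SLC16A3 and SLC16A7 in each library (1 bar per library, y axis from 0); right, the ratio of BSG to the sum of these carriers per kb in each library (points) with the mean ± SD (n = 3). SLC16A3 made up 19.7 to 27.8% in Control_24H and 76.1 to 78.7% in SP_24H, and the BSG ratio fell from 5.67 to 3.49.

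As a share of the 3 carriers per kb, SLC16A3 took 46.8 to 52.7% in Control_3D, 77.3 to 78.4% in SP_3D and 73.0 to 77.2% in SP_12D. SLC16A1 took 40.2 to 42.8% in Control_3D and 18.5 to 19.2% in SP_3D, while its own level did not pass the threshold. SLC16A7 never took more than 10.4%.

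The sodium-coupled carriers gave almost no reads. SLC5A8 (chr12:101155493-101210238, minus strand), a carrier for butyrate and propionate that is often silenced in tumours, had 0 reads in the control libraries and 0 in the SP libraries. SLC5A12 (chr11:26667020-26723427, minus strand), its low-affinity relative, had 1 read in Control_24H replicate 3, 1 in Control_3D replicate 2 and 0 in the other libraries. No difference between groups was detectable at this depth for either gene.

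BSG, the chaperone of MCT1 and MCT4, had the highest level per kb of the members in every group, from 113.4 CPM per kb in Control_3D to 224.8 CPM per kb in SP_24H. It lies on the plus strand at chr19:571277-583494. Its libraries had 535.4 to 615.6 CPM in Control_24H, 580.4 to 714.4 CPM in SP_3H and 946.4 to 1027 CPM in SP_24H. SP_3H overlapped the control and SP_24H lay above it. The log2 difference was 0.19 at 3 h (95% interval -0.05 to 0.42, edgeR adjusted p = 0.308), and BSG rose at 24 h by 0.80 (SE 0.11, 1.74-fold, edgeR adjusted p = 6.86e-04).

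In the longer experiment BSG had 461.6 to 526.1 CPM in Control_3D, 820.9 to 884.6 CPM in SP_3D and 633.6 to 695.7 CPM in SP_12D. None of these groups overlapped. BSG rose 1.70-fold at 3 days (log2 0.76, SE 0.08, edgeR adjusted p = 1.89e-06) and 1.32-fold at 12 days (log2 0.40, SE 0.08, edgeR adjusted p = 8.82e-04). It was lower in SP_12D than in SP_3D, by -0.36 (SE 0.08, edgeR adjusted p = 0.013).

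Some of the calls of BSG depended on the GC content and length correction. Under it the log2 difference was 0.18 at 24 h (edgeR adjusted p = 0.182) and 0.13 at 12 days (edgeR adjusted p = 0.132), and only the rise at 3 days, 0.37, stayed past the threshold. The differences between SP groups also missed the threshold with it, 0.22 for SP_24H against SP_3H (edgeR adjusted p = 0.132) and -0.24 for SP_12D against SP_3D (edgeR adjusted p = 0.0584). The fall from 3 to 12 days was further lost without SP_12D replicate 1 (edgeR adjusted p = 0.0548) or SP_3D replicate 2 (edgeR adjusted p = 0.0649).

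At 24 h and later BSG rose less than the sum of the carriers, in which SLC16A3 rose most, so the ratio below restates the SLC16A3 rise in part. The per-kb ratio of BSG to the sum of SLC16A1, SLC16A3 and SLC16A7 was 5.67 ± 0.81 in Control_24H, 5.02 ± 0.73 in SP_3H and 3.49 ± 0.23 in SP_24H, and 4.27 ± 0.37 in Control_3D, 3.08 ± 0.06 in SP_3D and 2.29 ± 0.02 in SP_12D. The exact permutation test gave p = 0.4 at 3 h and p = 0.1, its smallest value, in the other 3 comparisons. The antisense gene BSG-AS1, which shares 140 exon bases with BSG, fell by 1.10 at 24 h, 2.20 at 3 days and 1.48 at 12 days (log2). Its mean was at most 6.70 CPM in any group, and reads over the shared bases cannot be told apart without strand.

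EMB, the chaperone of MCT2, is on the minus strand at chr5:50396192-50443248 and had levels per kb near those of SLC16A7 in the controls, 1.15 against 1.03 CPM per kb in Control_24H and 2.07 against 2.33 CPM per kb in Control_3D, with overlapping libraries. It had 6.94, 6.87 and 4.21 CPM in Control_24H, 4.23, 4.77 and 6.64 CPM in SP_3H and 5.50, 3.65 and 3.99 CPM in SP_24H, and these groups overlapped. The log2 differences were -0.19 at 3 h and -0.45 at 24 h, with 95% intervals from -0.77 to 0.40 and from -1.03 to 0.13.

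At the later times EMB was higher. Its libraries had 9.95, 12.2 and 10.4 CPM in Control_3D, 16.6, 14.6 and 12.7 CPM in SP_3D and 27.6, 26.4 and 29.7 CPM in SP_12D, with no overlap between any of the groups. EMB rose at 3 days by 0.43 (SE 0.12, 1.35-fold, edgeR adjusted p = 0.00833), a call lost without Control_3D replicate 1 (edgeR adjusted p = 0.0508) or SP_3D replicate 1 (edgeR adjusted p = 0.0668). At 12 days it rose 2.58-fold (2.17 to 3.07; log2 1.37, SE 0.12, edgeR adjusted p = 1.45e-07). SP_12D exceeded SP_3D by 0.93 (SE 0.12, edgeR adjusted p = 1.88e-04). In that comparison 2 tested members rose (EMB and SLC16A1), beside 4.46% of tested genes, and 1 fell (BSG), beside 3.65%.

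**Figure D4:**
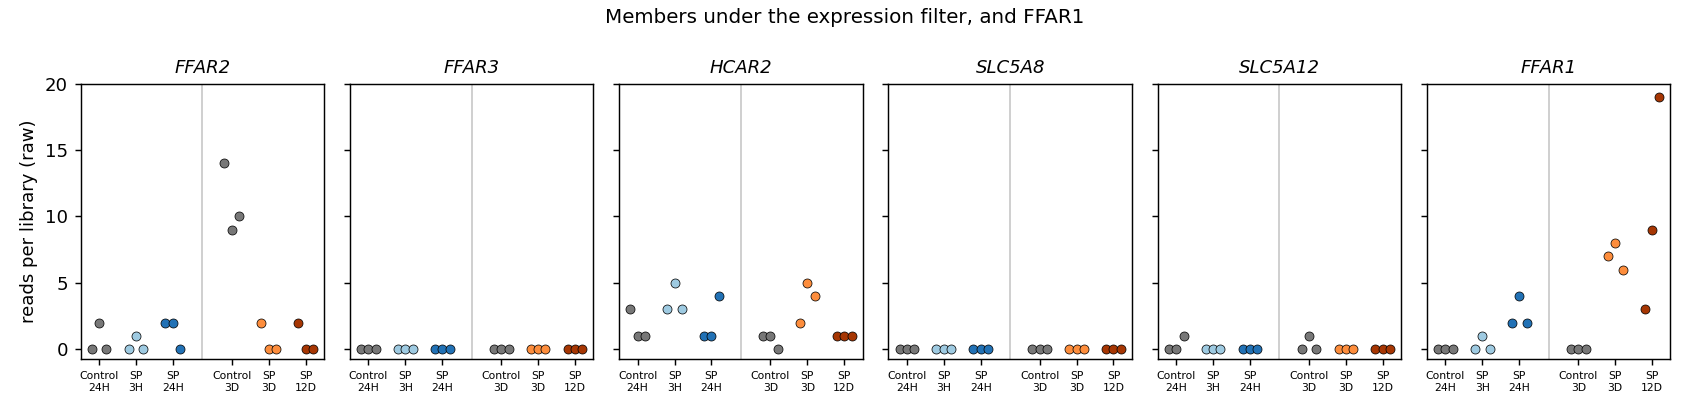
Raw reads per library (y axis, not scaled for depth) of the members under the filter on low counts, and of FFAR1 for comparison, by group (x axis); points are libraries. FFAR2 had 9 to 14 reads in Control_3D and 0 to 2 in every other library, and FFAR1 had 0 reads in all 6 control libraries.

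FFAR2 had more reads in Control_3D than in any other group. This receptor for acetate and propionate lies on the plus strand at chr19:35443907-35451767. Its libraries had 14, 9 and 10 reads in Control_3D, 2, 0 and 0 in SP_3D and 2, 0 and 0 in SP_12D. The control level was 0.61 ± 0.05 CPM (SD, n = 3), and the SP groups did not overlap it. Summed and scaled for depth, the reads were 15.2-fold lower in SP_3D (33 against 2 reads, exact 95% counting interval 3.89 to 130.7) and 17.9-fold lower in SP_12D (4.58 to 154.2), and these intervals cover counting error only.

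FFAR2 was just under the filter and so outside the tests above. Most of its reads lay in Control_3D, the group where it was high, so no p-value is given. In the 3 h and 24 h experiment FFAR2 had 2, 1 and 4 reads in Control_24H, SP_3H and SP_24H, and no difference was detectable.

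FFAR3 (chr19:35358460-35360489, plus strand), a receptor for propionate and butyrate, had 0 reads in every library. Its near-identical copy GPR42 had 1 read in all. Reads that fit both copies may have been left out in counting, whose setting is not stated, so these zeros are uncertain.

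HCAR2 (chr12:122701293-122703357, minus strand), the niacin and butyrate receptor, had 0 to 5 reads per library. It had 1, 1 and 0 reads in Control_3D, 2, 5 and 4 in SP_3D and 1, 1 and 1 in SP_12D. The ratio of SP_3D to control was 5.97 (11 against 2 reads, 95% counting interval 1.30 to 55.5), and that of SP_12D 1.38 (3 against 2 reads, 0.16 to 16.5). For HCAR2 an edgeR fit with no filter on low counts gave an adjusted p of 0.0984 at 3 days, so the rise was not past the threshold. In the other experiment the sums were 5, 11 and 6 reads in Control_24H, SP_3H and SP_24H. HCAR3, a near-identical copy, had 7 reads in all 18 libraries, and reads may be split between the copies or lost to both.

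FFAR1, a receptor for medium- and long-chain fatty acids in the same cluster of chromosome 19 as FFAR2 and FFAR3, is given because its reads went the other way from FFAR2 (chosen after its values were seen). It had 0 reads in the Control_3D libraries, 7, 8 and 6 in SP_3D and 3, 9 and 19 in SP_12D. Set against 3 reads over the control group, it was 7.60-fold higher at 3 days and 9.51-fold higher at 12 days. These values leave out the counting error of the SP reads and are not lower limits. The lower limit of the exact 95% counting interval was 5.66 at 3 days and 7.29 at 12 days.

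The other genes of these systems were taken as 6 lists of 36 genes, and their counts are read against the shares of all tested genes given above. Of 10 other SLC16 carriers, 8 were tested in the 3 h and 24 h experiment and 9 in the longer one. At 3 h 1 rose and 0 fell, at 24 h 3 rose and 0 fell, at 3 days 4 rose and 3 fell, and at 12 days 5 rose and 2 fell. The median log2 difference of the list was 0.35, 0.81, 0.40 and 0.48 in that order, beside 0.00, -0.01, -0.02 and 0.00 over all tested genes.

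SLC16A10, an aromatic amino acid carrier, rose at all 4 times, by 1.22, 1.66, 1.34 and 0.91 on the log2 scale. SLC16A9, a carnitine and urate carrier, rose by 0.92 at 3 days and 1.51 at 12 days (edgeR adjusted p = 0.00157 and 9.78e-06). SLC16A6, a carrier of ketone bodies, rose at 24 h by 0.85 and fell at 3 and 12 days by 1.25 and 1.05 (edgeR adjusted p = 0.0223, 1.26e-06 and 5.55e-06). SLC16A14, an orphan member of the family, rose at 24 h by 1.16 (edgeR adjusted p = 0.00853). It also rose at 3 days by 0.40 and at 12 days by 0.75 (edgeR adjusted p = 0.0282 and 3.2e-04). The rise at 3 days missed the threshold in DESeq2 (adjusted p = 0.0643).

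**Figure D5:**
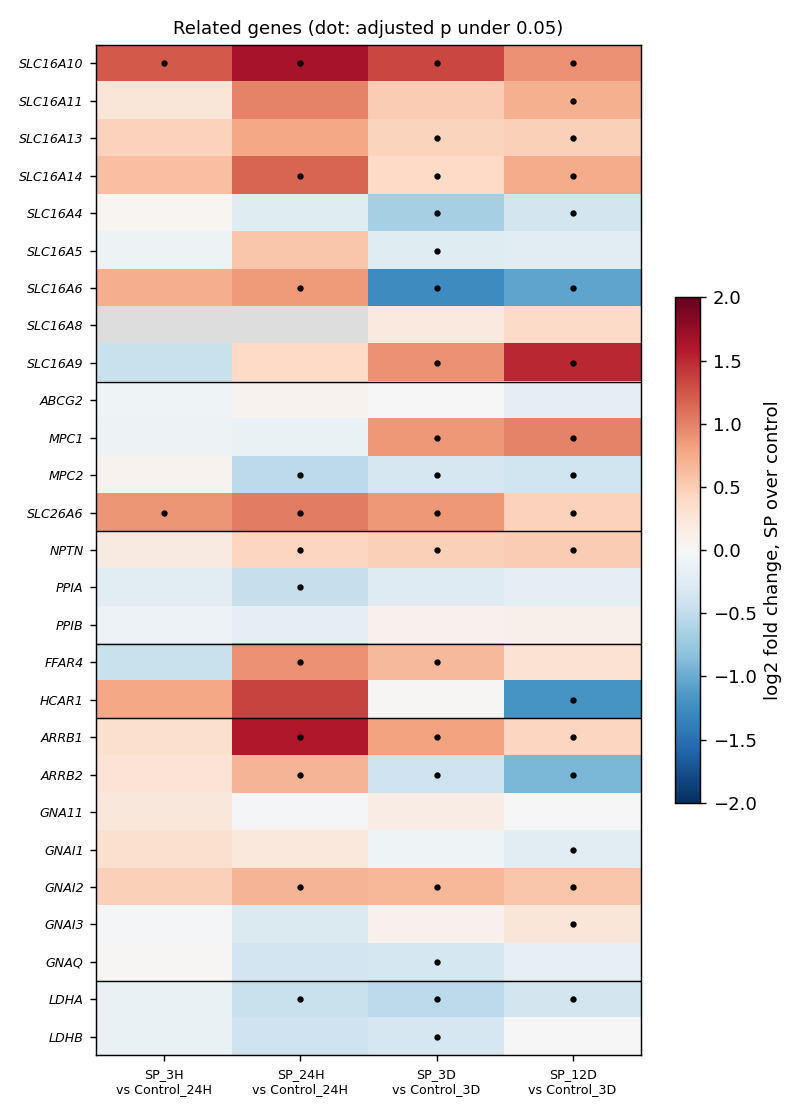
Log2 fold change of SP over control (colour, from -2 to 2) for the tested related genes (rows, parted by list: other SLC16 carriers, other carriers, basigin relatives and ligands, other receptors, G proteins and arrestins, lactate dehydrogenases) in the 4 comparisons (columns); dots mark an adjusted p under 0.05 and grey a gene under the filter. SLC16A10 rose at all 4 times, while SLC16A6 rose at 24 h and fell at 3 and 12 days, each against the control of its own experiment.

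Of 6 other monocarboxylate or anion carriers, 4 were tested. At 3 h 1 rose, at 24 h 1 rose and 1 fell, and at 3 and 12 days 2 rose and 1 fell. The anion exchanger SLC26A6 rose by 0.88, 1.02, 0.87 and 0.46 on the log2 scale from the first to the last time, and its rise at 12 days missed the threshold with the GC content and length correction (0.21, edgeR adjusted p = 0.0527). The 2 subunits of the mitochondrial pyruvate carrier went opposite ways: MPC1 rose by 0.86 and 0.99 at 3 and 12 days, and MPC2 fell by 0.53, 0.34 and 0.40 at 24 h, 3 days and 12 days. SLC26A3 and SLC22A7 were near 0, with 7 and 6 reads in 18 libraries.

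Among the basigin relatives and ligands, neuroplastin (NPTN), a paralogue of BSG that can also chaperone these carriers, rose by 0.43, 0.47 and 0.51 at 24 h, 3 days and 12 days. The basigin ligand PPIA (cyclophilin A) fell by 0.46 at 24 h (edgeR adjusted p = 0.0357); PPIA has many processed pseudogenes, which can take or lend reads. PPIB did not pass the threshold. Of these 3 genes, 1 rose and 1 fell at 24 h, 1 rose at 3 days and 1 at 12 days, and none passed at 3 h. Over all tested genes 16.8% rose and 12.0% fell at 24 h, 25.2% rose at 3 days and 26.4% at 12 days.

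Of 8 other receptors, 2 were tested. FFAR4, a receptor for long-chain fatty acids, rose at 24 h by 0.92 and at 3 days by 0.65 (edgeR adjusted p = 0.0166 and 0.00449). The lactate receptor HCAR1 fell by 1.18 at 12 days (edgeR adjusted p = 0.0467), with SP and control libraries overlapping, and missed the threshold in DESeq2 (adjusted p = 0.0838). The remaining receptors, GPR42, HCAR3, GPR84, OR51E1, OR51E2 and FFAR1, did not pass the filter on low counts.

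The G proteins and arrestins that couple to such receptors were all expressed, 7 of 7 tested. At 3 h 0 passed the threshold, at 24 h 3 rose, at 3 days 2 rose and 2 fell, and at 12 days 3 rose and 2 fell. Over all tested genes 16.8%, 25.2% and 26.4% rose at 24 h, 3 days and 12 days, and 12.0%, 23.3% and 23.4% fell. With 7 tested genes these counts say little of the list. The arrestin ARRB1 rose by 1.60 at 24 h, 0.80 at 3 days and 0.43 at 12 days, whereas ARRB2 rose by 0.67 at 24 h and fell by 0.41 and 0.92 at the later times. The control means of ARRB2 also differed, 77.2 CPM in Control_24H and 129.8 CPM in Control_3D, and the experiments were not tested against each other. The inhibitory G protein subunit GNAI2 rose by 0.67, 0.66 and 0.55 at 24 h, 3 days and 12 days, and its rise at 24 h missed the threshold with the GC content and length correction (0.26, edgeR adjusted p = 0.0963).

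Lactate dehydrogenase A, which makes the lactate that MCT4 exports, did not rise with SLC16A3. LDHA fell by 0.45 at 24 h, 0.52 at 3 days and 0.36 at 12 days (edgeR adjusted p = 0.0359, 3.31e-04 and 0.00501), and the fall at 24 h missed the threshold with the GC content and length correction (-0.28, edgeR adjusted p = 0.109). LDHB fell at 3 days by 0.33 (edgeR adjusted p = 0.008). At 3 h neither of these 2 genes passed the threshold.

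Markers of the labelled cell type were present in every group. All 8 epithelial and A549 markers (KRT8, KRT18, KRT19, CDH1, EPCAM, ALDH1A1, AKR1B10 and AKR1C2) had at least 1 CPM, with a summed level from 15180 to 22100 CPM. The sum hides changes in both directions. KRT8, KRT18, KRT19, CDH1 and EPCAM rose at 24 h, 3 days and 12 days. ALDH1A1 and AKR1B10 fell at these times, and AKR1C2 fell at 3 and 12 days. At 3 and 12 days KRT19 stood at 2.18 and 2.55 and AKR1C2 at -1.30 and -2.10 (log2). Of 8 leukocyte markers 2 reached 1 CPM, and CD3E, MS4A1 and FCGR3B had 0 reads in every library, as did PTPRC in the 3 h and 24 h experiment. CD14 rose at 24 h and 3 days (log2 2.22 and 1.08), as did BSG and SLC16A3. At 12 days, where BSG and SLC16A3 rose, CD14 did not pass the threshold (log2 0.09, edgeR adjusted p = 0.745). ITGAM and CD68, the other tested leukocyte markers, did not pass it in any comparison with control. Of 5 fibroblast markers, COL1A1 rose at 24 h, 3 days and 12 days (log2 2.48, 2.22 and 1.48), as did SLC16A3. COL1A1 had the highest mean of this list in each group (74.4 CPM in SP_24H). COL3A1 did not pass the threshold in any comparison with control, and COL1A2 had 0 or 1 reads in each group. PDGFRB went from 0.041 CPM in Control_24H (3 reads) to 0.558 CPM in SP_24H (55 reads). It passed the filter only through SP_24H, where it was high, and was under it in the longer experiment, so no p-value is given. The summed leukocyte markers were 5.93 to 9.08 CPM in Control_24H, 19.6 to 22.2 CPM in SP_24H, 19.0 to 21.0 CPM in Control_3D and 36.9 to 40.7 CPM in SP_3D. In SP_12D they were 15.7 to 29.6 CPM, which overlaps Control_3D. The summed fibroblast markers were 5.93 to 22.1, 62.0 to 89.9, 14.2 to 15.4 and 58.7 to 69.8 CPM in Control_24H, SP_24H, Control_3D and SP_3D. In SP_12D they were 30.1 to 55.8 CPM. DCN had 0 reads in Control_24H, SP_24H and Control_3D, 9 reads in SP_3D and 9 reads in SP_12D. Of 4 endothelial markers, at most 1 reached 1 CPM in any group. Their part in the members' values was not tested.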

How the data were processed

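RNA-seq was performed on 18 A549 libraries. The raw read counts per Ensembl gene in the 2 deposited tables were made by the authors, who used the NEBNext Ultra kit, paired-end sequencing, STAR 2.7.9a on GRCh38 and featureCounts, with no normalization. Strand and multimapping settings are not given in the sources used here. The submitters' processing notes also name R 4.2.1 and DESeq2 1.36.0.

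The analysis used edgeR 4.0.16 in R 4.3.3: filterByExpr (minimum count 10), TMM factors, and a robust quasi-likelihood fit with a group term over the 9 libraries of each table. Benjamini-Hochberg adjustment was made over all tested genes. DESeq2 1.42.0, RLE size factors, no filter, fits of 2 groups, a replicate block and leaving out each library were alternatives. The GC content and length correction (natural splines with 5 degrees of freedom per library) was chosen after seeing the data. The scripts were tested on simulated data. CPM are reads over the TMM-scaled library size. Lengths, GC content and coordinates are from GENCODE release 44 (GRCh38). For genes under the filter, summed reads were compared with exact conditional intervals.

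The members, the 6 related lists and the marker lists were chosen with earlier results of these data known. All members are named, and of each related list up to 3 changed genes per comparison with the largest change, beside counts for the list. SLC16A14 is given at its other changed times too. One related gene is not reported here, and the lists and counts leave it out. FFAR1, CSNK1D and the antisense genes were named for their position or after their values were seen.

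Libraries with the same number in Control_24H and SP_24H deviated together, with r = 0.60, 0.20 and 0.61, so they may be paired. SP_24H replicate 1 with Control_24H replicate 2 gave r = 0.25, above the same-number value of replicate 2. The labels give only replicate numbers, so a pairing is not settled. The values printed for 24 h are from the fit without the block, and the block changed no call of a member there. In the other comparisons with control at least 1 same-number r was under 0.1.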

Additional observations from a re-analysis of the deposited data

Results flagged for a closer look

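Between times of treatment, 5 differences of a member passed the threshold of the edgeR test of the difference itself. SLC16A3 was higher in SP_24H than in SP_3H by 2.12 on the log2 scale, and BSG by 0.61. EMB was higher in SP_12D than in SP_3D by 0.93 and SLC16A1 by 0.28, while BSG was lower by -0.36. SP_24H and SP_3H, and SP_12D and SP_3D, also differ in time in culture, with 1 shared control per pair, so that a change with time in untreated cells cannot be told apart. Groups of 3 libraries were not screened for single outlying libraries.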

How the results depend on the processing

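Over the alternatives, of 480 values of a tested member, 458 kept their side of the threshold, 19 lost the call and 3 gained it. The sign turned in 21 values, of which 0 were past the threshold in the reported fit or in the alternative (BSG at 3 h, for example, stood at -0.04 with the GC content and length correction). SLC16A3 kept its 4 calls against control in all 16 alternatives of each. The GC content and length correction, with or without the replicate block, lowered the members past the threshold from 2 to 1 at 24 h and from 2 to 1 for SP_24H against SP_3H (BSG). For SP_12D against SP_3D, leaving out 1 library gave 1 to 3 members, 1 without SP_12D replicate 1 or SP_3D replicate 2. With the correction and the replicate block, BSG stood at 0.19 at 24 h, and the block alone changed no call of a member in any comparison.

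Counts over all tested genes moved more. At 3 h 1999 genes passed, against 973 in a fit of the 2 groups alone, 3085 with the GC content and length correction, 3560 with that correction and the replicate block, and 941 to 2209 without 1 library (941 without SP_3H replicate 2). At 24 h the count was 5009 (5044 with the replicate block) and 2796 to 6618 without 1 library (2796 without SP_24H replicate 2, 3163 without SP_24H replicate 3). SP_24H against SP_3H gave 3497, 5518 with the correction and the block, and 1723 to 4406 without 1 library. SP_12D against SP_3D gave 1440, 933 in the fit of 2 groups, and 556 to 5073 without 1 library (5073 without SP_12D replicate 3). The cause was not tested. The replicate numbers of SP_3H run against those of Control_24H (r = -0.17, -0.08 and -0.71), and the block gave 1917 genes there.

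Of 58 changed values of related genes, 58 kept their call with RLE size factors, 55 with DESeq2 and 49 with the GC content and length correction, and 0 turned sign. Depth limits SLC5A8, SLC5A12, FFAR2, FFAR3 and HCAR2, for which only large differences can be seen.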
